A study of Homo sapiens with 24 samples.

Results

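The mitochondrial ribosomal protein genes were followed in MB468 cells and in their Met-independent derivative during the switch from methionine (Met) to homocysteine (Hcy). The set was taken by name, as every row of the gene count table whose symbol is MRPL or MRPS followed by a number and at most 1 letter from A to C. It held 77 of 26645 gene rows, and 76 of them were among the 14741 genes that passed the filter on low counts. MRPS18B was the member that did not pass.

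RNA was sequenced from MDA-MB-468 (MB468), a triple-negative breast cancer line, and from its derivative MDA-MB-468res-R8, a single clone that proliferates without Met and is called MB468res-R8 or R8 here. Cells in Met+ medium, which holds 100 µM Met, gave the 0 h samples. Met-Hcy+ medium, in which 370 µM Hcy replaces Met, gave the samples at 0.5, 2 and 12 h. No Met+ library was taken at these later times. Changes over time therefore cannot be told apart from effects of the medium change itself or of time in culture. Each of the 8 groups of line and time had 3 libraries, and all 24 libraries carried the same added spike-in RNAs. The labels give no drug or introduced gene for any group, and R8 stands for 1 clone, so that a difference between the lines is a difference between MB468 and that clone.

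Library totals ran from 11745553 to 36496655 counts with a median of 20503827. Epithelial and basal markers were abundant in both lines, with KRT5 between 35030 and 63300 normalized counts and EPCAM between 6506 and 9938. PGR did not exceed 2.24 normalized counts, PTPRC of leukocytes did not exceed 4.53, and ALB of hepatocytes did not exceed 9.72. ESR1 was detected, at 94.5 to 513 normalized counts. COL1A1 of fibroblasts was detected too, at 331 to 894 normalized counts in MB468 and 663 to 1665 in R8. PECAM1 of endothelium reached 60.8, and ERBB2 lay between 872 and 2214. KRT8 lay between 22870 and 56390. The second MB468 library at 2 h stood apart from the rest with 8251 counts of RN7SK, 3733 of RMRP and 3386 of RPPH1, which did not exceed 357, 203 and 202 counts in the other libraries. Calls at 2 h in MB468 are therefore also given without it.

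The mitochondrial ribosome translates the few proteins that mitochondrial DNA encodes, all of them membrane subunits of the oxidative phosphorylation complexes. Its ribosomal RNAs are made in the organelle, whereas every one of its proteins is encoded in the nucleus, made on cytosolic ribosomes and imported. The proteins named MRPL belong to the large subunit, which forms peptide bonds, and those named MRPS to the small subunit, which reads the mRNA, although MRPS18A and MRPS30 sit in the large subunit. Many of the proteins have a bacterial counterpart, whereas the mitochondria-specific ones were added in eukaryotes. The mitochondrial ribosomal RNAs themselves were not analysed here.

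Short sequences of 2 kinds were frequent in the promoters of the set and are shown first, since they are what many members have in common besides their names. RefSeq entries (GRCh38.p14) covering 250 bases before to 50 bases after the transcript start were found for 68 of the 77 members. The letters CCGGAAG, a core bound by ETS factors, occurred on either strand in 29 of these 68 promoters (42.6%), in 12.2% of all 27305 genes with an entry and in 21.0% of the 10749 tested genes with an entry. The letters AAGATGGC, a core bound by YY1, occurred in 21 of 68 (30.9%), in 3.52% of all genes and in 6.16% of tested genes. In 12 members (17.6%) these YY1 letters lay whole, on the gene's own strand, within the first 30 bases of the transcript, which was so for 2.47% of tested genes. The YY1 letters contain ATG, and in 9 of the 12 that ATG was the annotated start codon, so the letters also spell the beginning of the reading frame. The 2 cores can overlap by the letters AAG, which they did in 0 of the 68 members and in 0.0372% of tested genes. GCGCATGCG of NRF1 was found in 4.41% of members and 4.03% of tested genes, CACGTG (the E-box) in 13.2% and 12.1%, and TGACGTCA (the cyclic AMP response element) in 1.47% and 3.63%.

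The stretches below run 5′ to 3′ from 45 bases before to 30 bases after the transcript start, with the ETS and YY1 letters in capitals and all else in lower case. The first 8 hold the YY1 letters just after the start, MRPL3 and MRPS12 hold the ETS letters alone, and MRPS17 and MRPS9, which hold neither in this stretch, are the members with the largest 12 h rise in MB468 and one of the largest differences between the lines.
MRPL20: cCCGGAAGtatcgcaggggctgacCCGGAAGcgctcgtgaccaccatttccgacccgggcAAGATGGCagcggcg
MRPS10: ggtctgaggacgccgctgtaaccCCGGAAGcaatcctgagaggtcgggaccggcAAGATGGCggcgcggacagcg
MRPS18A: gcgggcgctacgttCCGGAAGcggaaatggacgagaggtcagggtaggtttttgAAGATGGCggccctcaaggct
MRPL45: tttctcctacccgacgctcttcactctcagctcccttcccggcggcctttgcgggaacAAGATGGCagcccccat
MRPS24: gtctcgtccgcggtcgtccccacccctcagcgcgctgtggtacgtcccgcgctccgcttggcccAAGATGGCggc
MRPS27: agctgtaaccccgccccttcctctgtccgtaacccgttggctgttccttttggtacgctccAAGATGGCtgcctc
MRPS30: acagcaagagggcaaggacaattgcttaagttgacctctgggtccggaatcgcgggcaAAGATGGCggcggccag
MRPS7: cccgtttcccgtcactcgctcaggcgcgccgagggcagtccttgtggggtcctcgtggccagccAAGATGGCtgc
MRPL3: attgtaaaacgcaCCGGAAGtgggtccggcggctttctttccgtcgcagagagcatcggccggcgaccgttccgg
MRPS12: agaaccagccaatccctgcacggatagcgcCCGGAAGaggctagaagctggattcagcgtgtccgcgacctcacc
MRPS17: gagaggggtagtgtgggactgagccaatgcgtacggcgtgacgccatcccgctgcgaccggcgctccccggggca
MRPS9: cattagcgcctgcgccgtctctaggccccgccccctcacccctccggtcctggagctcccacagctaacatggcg

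On GRCh38.p14 these stretches are chr1:1407264-1407338 for MRPL20, chr6:42217832-42217906 for MRPS10, chr6:43687762-43687836 for MRPS18A, chr7:43869488-43869562 for MRPS24, chr5:72320211-72320285 for MRPS27 and chr3:131502942-131503016 for MRPL3, all on the minus strand. On the plus strand are chr17:38297123-38297197 for MRPL45, chr5:44808902-44808976 for MRPS30, chr17:75261834-75261908 for MRPS7, chr19:38930909-38930983 for MRPS12, chr7:55951832-55951906 for MRPS17 and chr2:105038024-105038098 for MRPS9. Counting the first transcribed base as 1, the YY1 letters began at base 10 in MRPS10 and MRPS18A, at 14 in MRPL45 and MRPS30, at 16 in MRPL20, at 17 in MRPS27 and at 20 in MRPS24 and MRPS7. Of the 20 tested members with the YY1 letters anywhere in the promoter, 17 rose at 12 h in R8 and 11 in MB468, against 29 and 27 of the 47 tested members without them. Of the 29 with the ETS letters, 19 rose in R8 and 13 in MB468, against 27 and 25 of the 38 without them. Over all tested genes 30.2% rose in R8 and 36.1% in MB468.

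The summed level of the set was close to even between the lines at 0 h. Summed over the 77 members, the genes took 0.500%, 0.494% and 0.492% of all gene counts in the 3 MB468 libraries at 0 h and 0.499%, 0.487% and 0.500% in the 3 R8 libraries. Per kilobase of the annotated main transcript, the highest mean level over the 24 libraries was that of MRPL4, a large subunit protein that lines the exit tunnel, at 6641 normalized counts per kb. MRPL12, which forms the flexible stalk that recruits translation factors, followed at 3359 and MRPS7, a small subunit head protein, at 2951. The lowest levels per kilobase among tested members were 39.7 for MRPS36, 65.6 for MRPS24 and 98.3 for MRPL45, which anchors the large subunit near the inner membrane. MRPS36 is also known as a subunit of the oxoglutarate dehydrogenase complex and was put in neither ribosomal subunit here.

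MRPS18B, a small subunit protein gene in the major histocompatibility region of chromosome 6, had 278 counts over the 24 libraries together, against a median of 29052 for the members. Of these, 168 counts came from the third R8 library at 0 h, and the other libraries held 0 to 13 counts each. RPS18, a cytosolic ribosomal protein gene of the same chromosomal region, had 724 counts in all, against a median of 168851 for cytosolic ribosomal protein genes. No difference in MRPS18B was therefore read from these files. MRPS24 had 1071 counts in all and shares 23.2% of its exon bases with the readthrough gene URGCP-MRPS24, which had 0 counts in every library.

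The summed share of the set stood apart at 12 h, when it was 0.589%, 0.595% and 0.601% in the MB468 libraries and 0.590%, 0.590% and 0.596% in the R8 libraries. Each of these 6 values lay above every value of the other 18 libraries, of which the highest was 0.507%. Mean shares at 0.5 h were 0.487% ± 0.0112 (SD, n = 3) in MB468 and 0.483% ± 0.00804 (SD, n = 3) in R8, and at 2 h they were 0.488% ± 0.0171 (SD, n = 3) and 0.494% ± 0.00407 (SD, n = 3). The 12 h share was 1.2 times the 0 h share in both lines. With library sizes scaled by TMM (trimmed mean of M values, which sets the bulk of genes equal between libraries), the summed normalized counts were 1.13 times higher in MB468 and 1.21 times higher in R8, so the 2 scales differ for MB468.

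**Figure D1:**
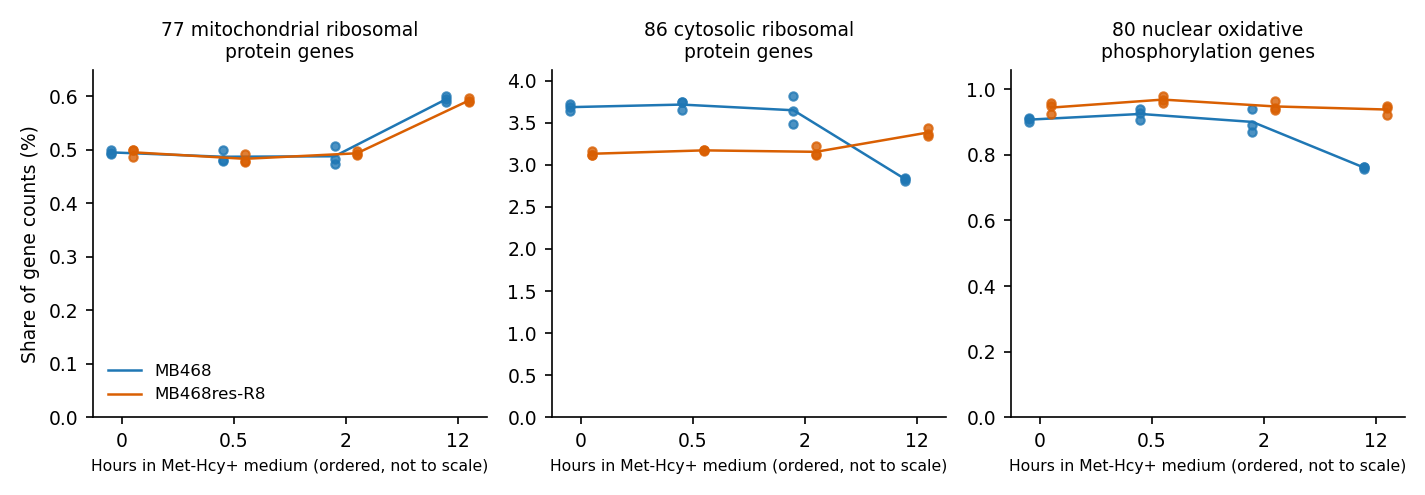
Share of all gene counts taken by 77 mitochondrial ribosomal protein genes, 86 cytosolic ribosomal protein genes and 80 nuclear genes of oxidative phosphorylation (y axes, %, from 0) by hours in Met-Hcy+ medium (x axes, in order and not to scale). Points are single libraries and lines join the means of 3. The mitochondrial ribosomal share reached 0.589% to 0.601% at 12 h in both lines, whereas the cytosolic ribosomal share at 12 h was 2.80% to 2.85% in MB468 and 3.34% to 3.44% in R8.

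Before the switch, the members differed between the lines in both directions. At an adjusted p under 0.05 (edgeR's quasi-likelihood test, Benjamini-Hochberg), 14 of 76 members were higher in R8 and 15 were lower, while 26.4% of all tested genes were higher and 27.1% lower. The median log2 difference of the members (R8 minus MB468) was 0.02 and that of all tested genes was 0.00, and the members ranged from -0.61 to 1.02. Among the mitochondria-specific small subunit proteins, 0 of 9 were called higher and 5 were called lower, with a median of -0.26. Among the large subunit proteins with a bacterial counterpart, 9 of 30 were called higher and 3 lower.

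MRPS24, which helps hold the mRNA at its entry to the small subunit, had 28.7, 24.7 and 29.5 normalized counts in MB468 and 57.9, 45.9 and 64.1 in R8 at 0 h, without overlap (log2 difference 1.02 ± 0.22 SE, adjusted p = 0.00018 by edgeR). MRPL32, a large subunit protein that is cleaved by the m-AAA protease before it is built in, had 954, 1037 and 964 normalized counts in MB468 and 1662, 1644 and 1773 in R8 (log2 difference 0.78 ± 0.06 SE, edgeR adjusted p = 2.7e-15). MRPL20, an early-binding large subunit protein, was 0.65 ± 0.05 (SE) higher on the log2 scale. These 3 genes were higher in every R8 library than in any MB468 library, which their choice by the largest called differences makes likely.

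MRPL16, next to the tRNA sites of the large subunit, had 1375, 1259 and 1289 normalized counts in MB468 and 885, 775 and 902 in R8 at 0 h (log2 difference -0.61 ± 0.06 SE, edgeR adjusted p = 6.3e-11). The small subunit proteins MRPS31 (-0.56 ± 0.07 SE), MRPS35 (-0.53 ± 0.06 SE) and MRPS25 (-0.50 ± 0.06 SE), all specific to mitochondria, were also lower in R8. Each of these 4 genes, chosen as the lowest of those called, was lower in every R8 library than in any MB468 library. The share of all tested genes without overlap was not counted at 0 h. MRPL34 was 0.39 ± 0.11 (SE) higher in R8, and its libraries came close to each other without overlap, at 848 to 1150 normalized counts in MB468 and 1209 to 1495 in R8. Scaled by the spike-in RNAs, the median of all tested genes moved to -0.31 and the members called were 3 higher and 37 lower.

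The 0 h differences of the members ran with those of the genes around them. This relation was computed for members only, so whether it is particular to them was not tested. For the 72 members with at least 5 tested genes within 1000000 bases, the member's log2 difference at 0 h and the median of those neighbours had a Pearson correlation of 0.715 and a Spearman correlation of 0.587 across genes, which are not independent replicates and in part share neighbours. Around MRPL32 (chr7:42932376-42948958) the median of 11 neighbours was 0.93, and around MRPS24 (chr7:43866558-43869893) that of 24 neighbours was 0.78. Around MRPL16 (chr11:59806140-59810778) the median of 8 neighbours was -0.49, and around MRPL20 (chr1:1401909-1407293) that of 42 neighbours was 0.41. MRPS35 (chr12:27710822-27756295) went with -0.07 over 10 neighbours, far from its own value. For the 12 h difference between the lines' responses, described further on, the same correlations were 0.065 and 0.055.

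**Figure D2:**
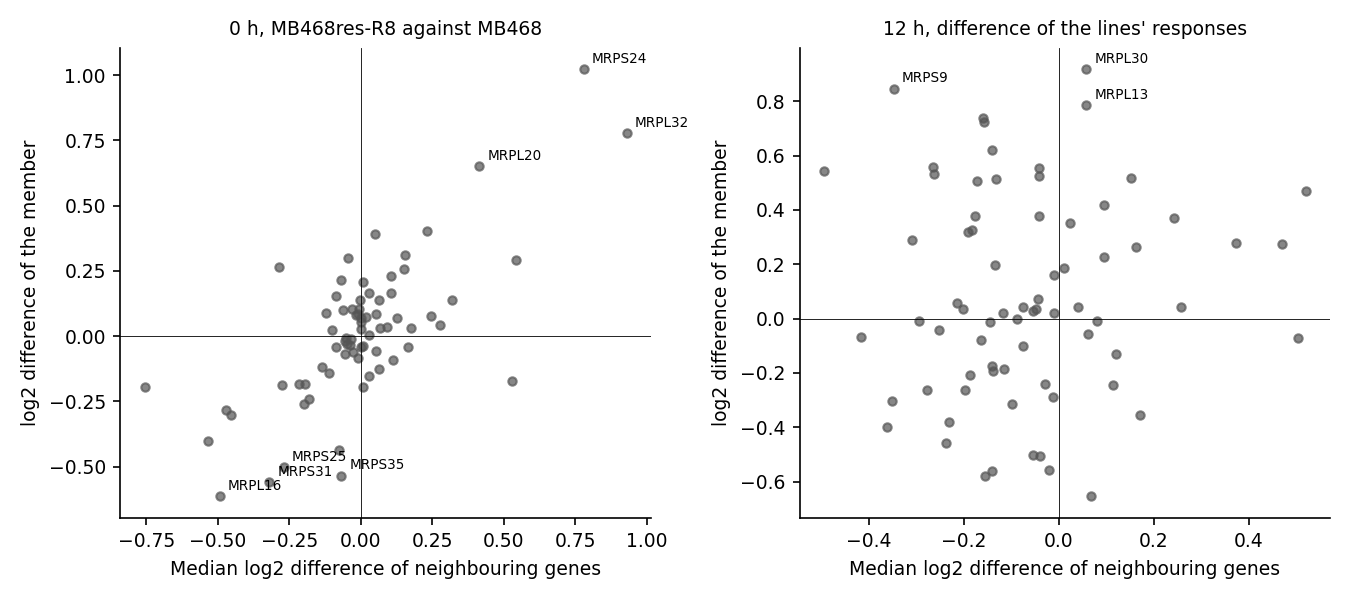
Log2 difference of each of 72 members (y axes) against the median log2 difference of the tested genes within 1000000 bases (x axes), for R8 against MB468 at 0 h (left) and for the difference of the lines' 12 h responses (right). Each point is 1 gene. The 0 h values rise together (Spearman 0.587), whereas the 12 h values are scattered (0.055).

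At 0.5 h in Met-Hcy+ medium, few members had changed, and more were lower than higher. In MB468, 4 of 76 members were called higher and 15 lower by edgeR, against 17.6% and 16.4% of all tested genes, with a median of -0.05. In R8 the counts were 3 higher and 14 lower, against 17.4% and 16.3%, with a median of -0.04. The members' share called higher was below the background in both lines, and their share called lower (19.7% and 18.4%) was close to it.

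MRPL15, a large subunit protein with a bacterial counterpart, had the smallest p among the members called lower in MB468. It had 1017, 994 and 964 normalized counts at 0 h and 715, 761 and 692 at 0.5 h in MB468 (log2 change -0.45 ± 0.06 SE, edgeR adjusted p = 2e-07). In R8 it had 1080, 972 and 1104 at 0 h and 885, 872 and 831 at 0.5 h (-0.28 ± 0.06 SE, edgeR adjusted p = 0.00029). By 12 h the same gene stood at 1463 to 1651 in MB468 and 1474 to 1608 in R8, above all earlier libraries of its line.

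MRPS12, which forms part of the decoding centre, fell by 0.27 on the log2 scale in MB468 (SE 0.06) and by 0.28 in R8 (SE 0.06) at 0.5 h. MRPL54 fell by 0.34 in R8 (SE 0.07). MRPS6, a small subunit platform protein, was higher at 0.5 h, with 2152, 2299 and 2260 normalized counts at 0 h and 2504, 2650 and 2716 at 0.5 h in MB468 (log2 change 0.23 ± 0.05 SE, edgeR adjusted p = 0.00088). MRPS31 was 0.22 ± 0.07 (SE) higher in MB468 and 0.23 ± 0.07 (SE) higher in R8, and MRPS27 was 0.20 ± 0.05 (SE) higher in R8. Without the second MB468 library at 0 h, 8 members were called lower in MB468, and without the first R8 library at 0 h or at 0.5 h, 9 were called lower in R8. With spike-in scaling no member was called higher at 0.5 h in either line, 18 were called lower in MB468 and 0 in R8.

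At 2 h the set was close to its 0 h level. In MB468, 3 members were called higher and 2 lower, against 8.88% and 7.47% of all tested genes, with a median of 0.02. MRPS10 had 1432, 1367 and 1470 normalized counts at 0 h and 1566, 1617 and 1669 at 2 h (log2 change 0.19 ± 0.05 SE, edgeR adjusted p = 0.0085), and MRPL1, of the mobile stalk next to the tRNA exit site, was 0.32 ± 0.09 (SE) higher. MRPL14 (-0.21 ± 0.05 SE) and MRPL36 (-0.21 ± 0.07 SE) were lower. Their lowest libraries at 2 h, with 1045 and 723 normalized counts, were both the library with high RN7SK, and without it 0 members were called lower and 2 higher in MB468, with a median of 0.04, MRPS10 at 0.19 and MRPL1 at 0.34. Without the third MB468 library at 2 h, 0 were called higher and MRPL1 was at 0.20. With spike-in scaling the directions of MRPS10 and MRPL1 turned (-0.24 and -0.11), the median of all tested genes in MB468 moved to -0.42, and 68 members were called lower and 0 higher.

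In R8 at 2 h, edgeR called 0 members higher and 0 lower, against 2.52% and 1.85% of all tested genes. At an unadjusted p under 0.05 there were 2 members, and DESeq2 called 0. The log2 changes of all 76 members lay between -0.21 and 0.13.

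The early responses of the lines were compared by the test of the difference itself, which made no call among the members. At 0.5 h edgeR called 0 members higher and 0 lower in the R8 response than in the MB468 response, against 1.2% and 1.7% of all tested genes, with 2 members at an unadjusted p under 0.05 and 0 called by DESeq2. At 2 h it again called 0 and 0, against 2.19% and 2.88%, with 6 at an unadjusted p under 0.05 and 0 by DESeq2, and also 0 and 0 without the library with high RN7SK. The differences of response ranged from -0.37 to 0.40 at 0.5 h and from -0.54 to 0.24 at 2 h.

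At 12 h most members had changed. In MB468, 40 of 76 were called higher and 18 lower by edgeR, against 36.1% and 34.7% of all tested genes, with a median log2 change of 0.13 for the members and 0.01 for all tested genes. In R8, 52 were called higher and 4 lower, against 30.2% and 31.1%, with medians of 0.26 and -0.02. All 3 libraries at 12 h lay above all 3 at 0 h for 41 members in MB468 and 53 in R8, as they did for 38.6% and 31.9% of all tested genes. They lay below for 18 and 5 members, and for 36.4% and 32.7% of all tested genes. With spike-in scaling the median of all tested genes was -0.23 in MB468 and 0.00 in R8, and the members' medians were -0.11 and 0.28. The direction of the set's median in MB468 thus turned with that scaling (14 called higher and 20 lower), while the members stayed 0.12 above the median of all genes, and in R8 35 were called higher and 0 lower. Spike-in RNAs made up 0.201% to 0.221% of counts in MB468 at 0 h and 0.240% to 0.289% at 12 h. They also varied within a group, from 0.214% to 0.288% in R8 at 0.5 h. In bulk samples, fewer cells, less RNA per cell and the amount of spike-in added cannot be told apart, and none was tested.

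**Figure D3:**
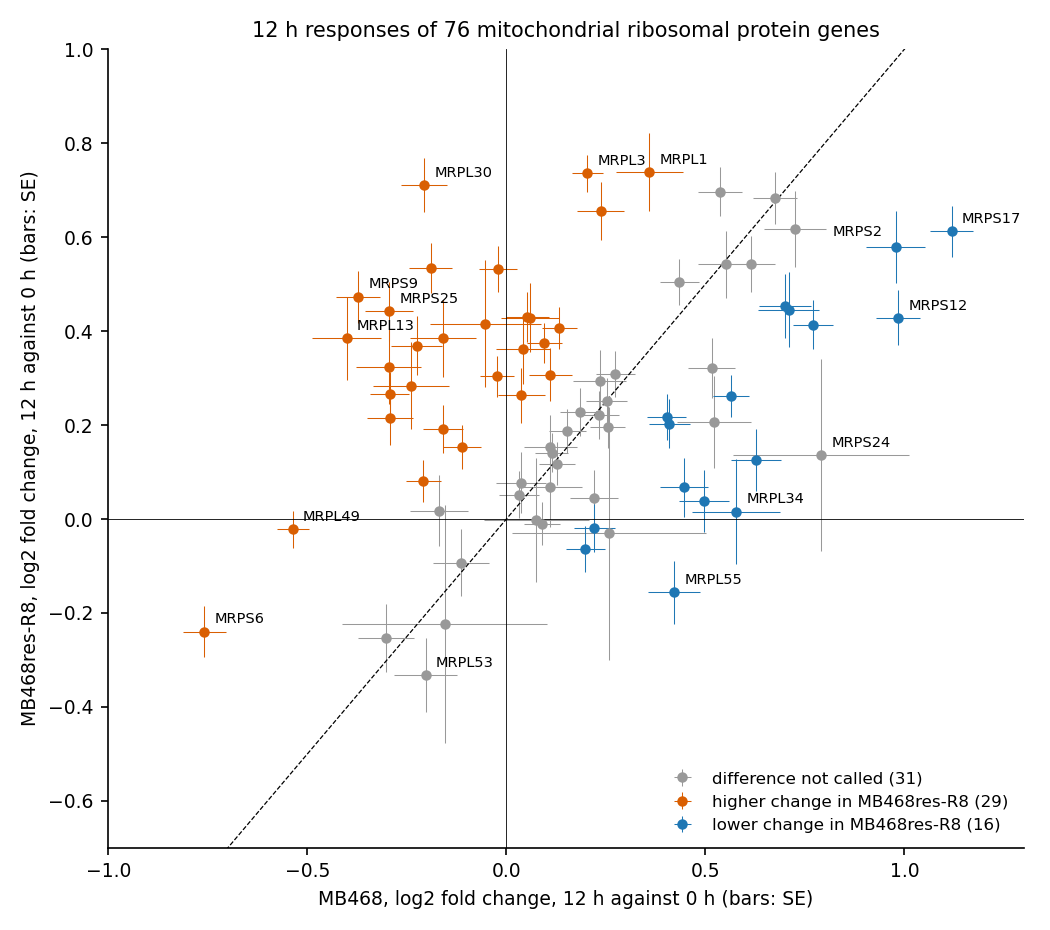
Log2 fold change at 12 h against 0 h of the 76 tested members in MB468 (x axis) and R8 (y axis), with TMM scaling. Points are genes, bars are standard errors, the dashed line marks equal change and colours give the edgeR test of the difference between the lines. MRPL30, MRPS9, MRPS25 and MRPL13 sit in the upper left, lower in MB468 and higher in R8, and MRPS17 and MRPS12 sit at the right.

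The 2 lines together sorted the members into groups. With TMM scaling, 30 members rose in both lines, 12 fell in MB468 and rose in R8, 1 rose in MB468 and fell in R8, and 3 fell in both. Of all tested genes, 18%, 5.99%, 5.58% and 18.1% were in these 4 classes, and of the members 39.5%, 15.8%, 1.32% and 3.95%. Under spike-in scaling 21 of the 30 were still above 0 in both lines, and all 12 kept their signs. That scaling moved the median of all tested genes to -0.23 in MB468 and 0.00 in R8. It thus lowers values in MB468 and leaves R8 nearly as it was, so it could not test the signs of the 12. A further 9 rose in MB468 alone by the call, 10 in R8 alone, 3 fell in MB468 alone and 8 passed in neither (12.5%, 6.18%, 10.6% and 15.6% of all tested genes). Across the 76 members the 12 h changes of the lines had a Pearson correlation of 0.337 and a Spearman correlation of 0.252, and across all tested genes these were 0.433 and 0.432, with genes not being independent replicates.

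The largest rises in MB468 were in small subunit proteins with a bacterial counterpart. MRPS17 (chr7:55951877-55956500), which binds the small subunit rRNA, had 1465, 1489 and 1268 normalized counts at 0 h and 3008, 3145 and 3071 at 12 h, every later library above every earlier one. Its log2 change was 1.12 ± 0.05 (SE, edgeR adjusted p = 2.2e-21), against 0.61 ± 0.05 in R8, where it went from 1827, 1659 and 1693 to 2567, 2725 and 2644. MRPS12 (chr19:38930944-38933168) went from 1244, 1143 and 1189 to 2332, 2268 and 2463 in MB468 (0.98 ± 0.06 SE) and from 1077, 1107 and 1054 to 1545, 1293 and 1512 in R8 (0.43 ± 0.06 SE). MRPS2, on the solvent side of the small subunit, went from 1021, 890 and 929 to 1830, 1826 and 1935 in MB468 (0.98 ± 0.07 SE) and from 901, 908 and 798 to 1342, 1159 and 1398 in R8 (0.58 ± 0.08 SE). MRPS24 rose by 0.79 ± 0.22 (SE) in MB468 at its low level, from 24.7 to 29.5 normalized counts at 0 h to 47.5 to 47.6 at 12 h.

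Small subunit proteins were also among those that fell most. MRPS6 (chr21:34073224-34143034) went from 2152, 2299 and 2260 normalized counts at 0 h to 1182, 1395 and 1399 at 12 h in MB468 (log2 change -0.76 ± 0.05 SE, edgeR adjusted p = 1e-15), after its higher values at 0.5 h. In R8 it went from 2297, 2058 and 2159 to 1803, 1906 and 1819 (-0.24 ± 0.05 SE, edgeR adjusted p = 0.00022). MRPL49 (chr11:65122183-65127371), a mitochondria-specific large subunit protein, went from 5989, 6153 and 5985 to 4074, 4195 and 4230 in MB468 (-0.54 ± 0.04 SE). In R8 the same gene had 5794, 5564 and 5669 at 0 h and 5708, 5570 and 5498 at 12 h, with overlap (-0.02 ± 0.04 SE).

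**Figure D4:**
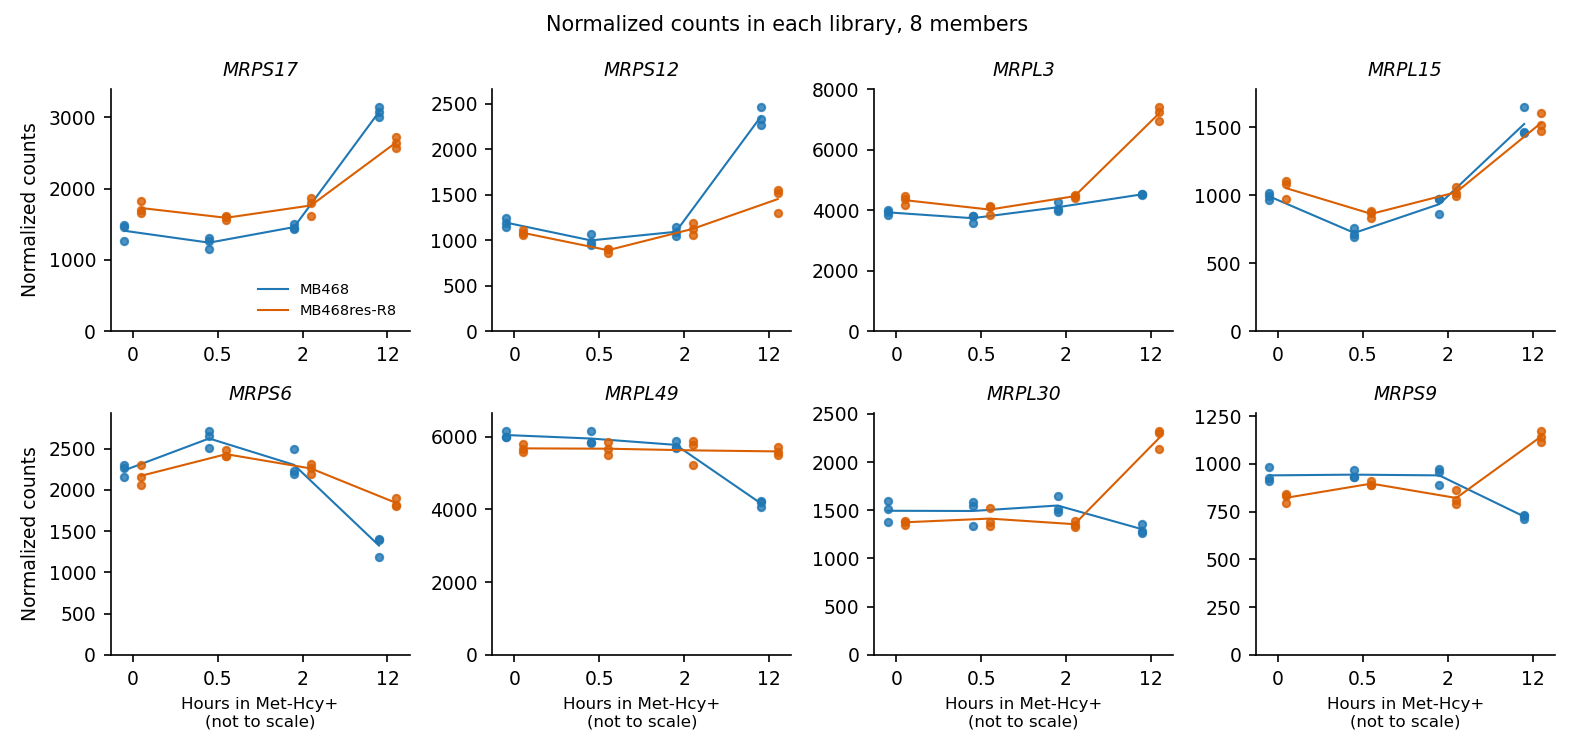
Normalized counts (y axes, from 0) of 8 members in each library by hours in Met-Hcy+ medium (x axes, in order and not to scale), with lines joining the means of 3 libraries. MRPS17 and MRPS12 climbed furthest in MB468 and MRPL3 in R8, MRPL15 dipped at 0.5 h in both lines, and MRPL30 and MRPS9 parted at 12 h.

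In R8 the largest rises were in the large subunit. MRPL3 (chr3:131462212-131502983), which reaches toward the peptidyl transferase centre, went from 4352, 4165 and 4467 normalized counts to 6957, 7410 and 7253 (log2 change 0.74 ± 0.04 SE, edgeR adjusted p = 3.9e-19). The same gene rose by 0.20 ± 0.04 (SE) in MB468, from 3832 to 3996 at 0 h to 4487 to 4546 at 12 h. MRPL1 rose by 0.74 ± 0.08 (SE) in R8 and 0.36 ± 0.08 in MB468. MRPL32, which was higher in R8 at the start, went from 1662, 1644 and 1773 to 2768, 2743 and 2712 in R8 (0.70 ± 0.05 SE) and from 954, 1037 and 964 to 1428, 1387 and 1474 in MB468 (0.54 ± 0.06 SE), so its highest MB468 library at 12 h stayed below its lowest R8 library at 0 h.

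The 3 stalk proteins were each called higher in MB468 with TMM scaling, as were 36.1% of all tested genes. They are too few to read as a pattern. MRPL10, the base of the stalk, went from 957, 939 and 936 to 1260, 1306 and 1430 normalized counts in MB468 (0.50 ± 0.06 SE) and from 889, 892 and 923 to 953, 895 and 923 in R8 (0.04 ± 0.07 SE, not called). MRPL11, where the stalk meets the rRNA, changed by 0.23 ± 0.07 and 0.29 ± 0.07 (SE), and MRPL12 by 0.18 ± 0.05 and 0.23 ± 0.05 (SE), in MB468 and R8. With spike-in scaling the median of the 3 genes in MB468 was -0.0042 and 0 of 3 were called. MRPL12 shares 69.5% of its exon bases with another annotated gene.

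Of the MRPS18 family, MRPS18A and MRPS18C could be tested. MRPS18A, which sits in the large subunit, changed by 0.03 ± 0.05 and 0.05 ± 0.05 (SE) at 12 h in MB468 and R8, called in neither. MRPS18C, in the small subunit, changed by -0.24 ± 0.10 (SE) in MB468 and 0.28 ± 0.09 in R8, and 40.2% of its exon bases are shared with ABRAXAS1. MRPS30, also in the large subunit, rose alike in value, from 810, 872 and 832 to 1362, 1313 and 1339 normalized counts in MB468 and from 825, 847 and 862 to 1355, 1344 and 1363 in R8 (log2 changes 0.67 ± 0.06 and 0.68 ± 0.06 SE).

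By place in the ribosome, the members called higher and lower at 12 h in MB468 were 18 and 7 of 30 large subunit proteins with a bacterial counterpart, 8 and 4 of 20 mitochondria-specific large subunit proteins, 10 and 5 of 16 small subunit proteins with a bacterial counterpart, and 4 and 2 of 9 mitochondria-specific small subunit proteins. In R8 the counts were 23 and 1, 12 and 1, 10 and 2, and 7 and 0. Over all tested genes the shares called higher and lower were 36.1% and 34.7% in MB468 and 30.2% and 31.1% in R8, and the class nearest to them in its share called higher was the mitochondria-specific large subunit proteins in MB468 (40.0%). With spike-in scaling, the medians of all 4 classes in MB468 were below 0, from -0.16 to -0.01, and in R8 they were 0.18 to 0.38. The largest changes in MB468, in both directions, fell in the small subunit proteins with a bacterial counterpart, from -0.76 for MRPS6 to 1.12 for MRPS17.

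With TMM scaling, the members' 12 h responses were called higher in R8 more often than lower (38.16% and 21.05%). Calls in the 2 directions together were about as common as among all tested genes. The test of the difference (R8 response minus MB468 response, edgeR) called 29 members higher and 16 lower, against 26.2% and 30.3% of all tested genes, with a median of 0.03 for the members and -0.05 for all. With spike-in scaling 30 were called higher and 0 lower, and the median of all genes was 0.20, so the lower calls did not hold on that scale.

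MRPL30 (chr2:99181152-99199561), a large subunit protein with a bacterial counterpart, had the largest difference. It went from 1517, 1592 and 1376 normalized counts at 0 h to 1280, 1362 and 1266 at 12 h in MB468 and from 1393, 1352 and 1381 to 2136, 2298 and 2324 in R8. The log2 changes were -0.21 ± 0.06 and 0.71 ± 0.06 (SE) and their difference was 0.92 ± 0.08 (SE, edgeR adjusted p = 1.2e-12). At 0.5 and 2 h its libraries ranged from 1339 to 1653 in MB468 and from 1326 to 1521 in R8, so the lines parted after 2 h.

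MRPS9 (chr2:105038069-105099960), whose end reaches the tRNA sites of the small subunit, went from 924, 910 and 985 to 731, 729 and 712 in MB468 and from 842, 794 and 832 to 1116, 1173 and 1141 in R8. Its difference was 0.85 ± 0.08 (SE, edgeR adjusted p = 3.3e-12). MRPL13, which binds early in large subunit assembly, went from 1252, 1296 and 1258 to 1013, 1033 and 846 in MB468 and from 1160, 1024 and 1141 to 1313, 1619 and 1424 in R8 (difference 0.79 ± 0.12 SE). MRPS25 went from 1044, 1031 and 1010 to 809, 852 and 857 in MB468 and from 763, 689 and 723 to 915, 1006 and 1043 in R8 (difference 0.74 ± 0.09 SE). For these 3 genes the libraries at 0 and 12 h did not overlap in either line. MRPS25 shares 45.9% of its exon bases with other annotated genes, NR2C2 among them, MRPS9 shares 20.3% with MRPS9-AS1, and MRPL30 shares 11.8%.

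The other members that fell in MB468 and rose in R8 were MRPL2, MRPL22, MRPL27, MRPL35, MRPL39, MRPL51, MRPS18C and MRPS22. With MRPL30, MRPS9, MRPL13 and MRPS25 they make 12, of which 8 belong to the large subunit and 4 to the small. This split is close to that of the tested set. The set holds 30 large subunit proteins with a bacterial counterpart and 20 specific to mitochondria, against 16 and 9 in the small subunit. The 12 hold MRPL22, which lines the exit tunnel, and none of MRPL10, MRPL11 and MRPL12 of the stalk, which are too few to read as a pattern. MRPS22 shares 42.8% of its exon bases with other annotated genes, MRPS18C 40.2%, MRPL2 35.0% and MRPL51 27.6%. MRPL22, MRPL27, MRPL35 and MRPL39 share 0.0%.

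In the opposite direction, MRPL55 went from 807, 857 and 807 to 1143, 1047 and 1116 normalized counts in MB468 (0.42 ± 0.07 SE) and from 1016, 1037 and 987 to 977, 837 and 910 in R8 (-0.16 ± 0.07 SE, edgeR adjusted p = 0.04), with a difference of -0.58 ± 0.09 (SE, edgeR adjusted p = 1.3e-06). Its fall in R8 was near the threshold and was lost in 11 of the 24 fits that left out 1 library. MRPL34 went from 1054, 848 and 1150 to 1409, 1511 and 1592 in MB468 and from 1209, 1279 and 1495 to 1322, 1318 and 1366 in R8, where the groups overlapped (difference -0.56 ± 0.16 SE). MRPS12 and MRPS17, which rose in both lines, rose by 0.56 and 0.51 more in MB468. MRPL53 and MRPS14 fell in both lines (MRPL53 -0.20 ± 0.08 and -0.33 ± 0.08 SE, MRPS14 -0.30 ± 0.07 and -0.25 ± 0.07 SE), and 99.4% of the exon bases of MRPL53 are shared with other genes, CCDC142 among them.

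Overlap with other genes matters here since the library kit does not mark the strand, so that reads of overlapping genes cannot be told apart. Of the members, 47 tested genes shared under 10% of their exon bases with another annotated gene, and among these 24 were called higher and 7 lower at 12 h in MB468, 31 and 2 in R8, and 18 and 8 in the difference. Over all 76 tested members these counts were 40 and 18, 52 and 4, and 29 and 16. Over all tested genes, not split by overlap, 36.1% were called higher and 34.7% lower in MB468. These shares were 30.2% and 31.1% in R8 and 26.2% and 30.3% in the difference. Many of the lower calls in MB468 were in members with more shared bases, and whether overlap bears on them was not tested. Overlap was taken from GENCODE v44, and the annotation used for the counts is not given.

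Factors that build and serve the mitochondrial ribosome were called higher more often than lower in each line with TMM scaling. Of 25 assembly factors (the enzymes, helicases and GTPases that fold, modify and join the rRNAs), 17 were called higher and 3 lower at 12 h in MB468 (median 0.47) and 14 and 1 in R8 (median 0.22). Among all tested genes 36.1% were called higher and 34.7% lower in MB468, and 30.2% and 31.1% in R8. DDX28, a helicase of large subunit assembly, changed by 1.53 ± 0.07 (SE) in MB468 and 0.14 ± 0.08 (SE, not called) in R8. RNMTL1, now named MRM3 and a methyltransferase of the large rRNA, rose by 1.44 ± 0.07 and 0.45 ± 0.07 (SE), and MTERF3 by 0.62 ± 0.09 and 0.87 ± 0.09 (SE). RPUSD4, a pseudouridine synthase of the large rRNA, rose by 0.60 ± 0.07 (SE) in R8. MTG1, a GTPase of large subunit assembly, fell by 0.28 in MB468 (SE 0.06), and MALSU1, which keeps the subunits apart during assembly, fell by 0.27 in MB468 (SE 0.11) and by 0.73 in R8 (SE 0.10). In the difference of responses 2 assembly factors were called higher in R8 and 14 lower, against 26.2% and 30.3% of all tested genes. The median of the 25 was -0.22, which turned to 0.05 with spike-in scaling.

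Of 18 translation factors, 12 were called higher and 3 lower in MB468 (median 0.29, or 0.06 with spike-in scaling) and 12 and 0 in R8 (median 0.37). In the difference of responses 5 translation factors were called higher in R8 and 7 lower, against 26.2% and 30.3% of all tested genes. The shares of all tested genes called higher and lower at 12 h were 36.1% and 34.7% in MB468 and 30.2% and 31.1% in R8. C12orf65, a release factor that frees stalled ribosomes, rose by 1.63 ± 0.10 and 0.79 ± 0.11 (SE). TACO1, which activates translation of cytochrome oxidase subunit 1, rose by 0.83 ± 0.07 and 0.30 ± 0.07 (SE). MTFMT, the enzyme that formylates initiator methionyl-tRNA, changed by 0.05 ± 0.10 (SE, not called) in MB468 and rose by 0.63 ± 0.10 in R8. MRRF, which recycles ribosomes, fell by 0.19 (SE 0.07) in MB468 and rose by 0.54 ± 0.07 in R8, and SLIRP, an mRNA-binding partner, fell by 0.23 (SE 0.07) in MB468 and rose by 0.32 ± 0.07 in R8.

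Of 6 ribosomal proteins that carry other names, 2 were called higher and 3 lower in MB468, and 5 and 0 in R8. The shares of all tested genes were 36.1% and 34.7% in MB468 and 30.2% and 31.1% in R8. DAP3, a GTP-binding small subunit protein, fell by 0.27 (SE 0.04) in MB468 and rose by 0.30 ± 0.04 in R8, CHCHD1 fell by 0.22 (SE 0.06) and rose by 0.16 ± 0.07, and PTCD3 fell by 0.15 (SE 0.04) and rose by 0.50 ± 0.05. ICT1, the older symbol of MRPL58 and a peptidyl-tRNA hydrolase, rose by 0.64 ± 0.06 and 0.24 ± 0.06 (SE). GADD45GIP1 rose by 0.23 ± 0.05 and 0.18 ± 0.05 (SE) with TMM scaling, and its value in MB468 turned to -0.0126 with spike-in scaling.

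Genes of the cytosolic ribosome and of the respiratory chain, whose mitochondrially made subunits are the ribosome's products, gave other counts. Of 82 cytosolic ribosomal protein genes, 2 were called higher and 71 lower at 12 h in MB468 (median -0.40) and 44 and 1 in R8 (median 0.13). Of 75 nuclear genes of oxidative phosphorylation subunits, 1 was called higher and 60 lower in MB468 (median -0.26) and 17 and 15 in R8 (median 0.01). With spike-in scaling these medians were -0.63 and -0.50 in MB468 and 0.15 and 0.02 in R8. Among all tested genes 36.1% were called higher and 34.7% lower in MB468 with TMM scaling, and 30.2% and 31.1% in R8. The difference of responses was called higher in R8 for 73 and lower for 1 of the 82 cytosolic genes, for 52 and 2 of the 75 respiratory genes, and for 29 and 16 of the 76 members, against 26.2% and 30.3% of all tested genes.

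**Figure D5:**
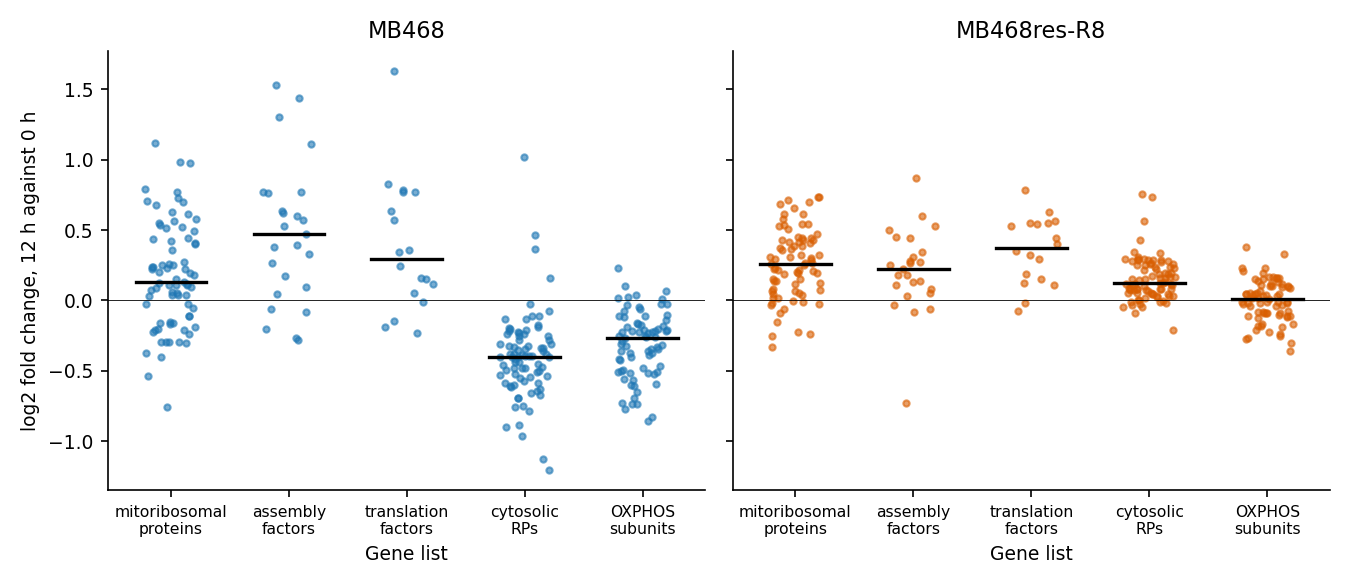
Log2 fold change at 12 h against 0 h (y axis, TMM scaling) of the tested genes of 5 lists (x axis) in MB468 (left) and R8 (right). Points are genes and black bars are medians. In MB468 the mitochondrial ribosomal proteins (median 0.13), assembly factors (0.47) and translation factors (0.29) lie above the cytosolic ribosomal proteins (-0.40) and oxidative phosphorylation subunits (-0.26), and in R8 the 5 medians lie from 0.01 to 0.37.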

How the data were processed

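Poly(A) RNA with added spike-in RNAs was sequenced from 24 libraries (3 for each line and time). Per the labels and the submitters' processing notes, reads were aligned with HISAT2 2.1.0 to human GRCh38 plus the spike-ins, and gene counts were made with featureCounts of Subread 1.5.3. The annotation and the strand setting are not given in the sources used here. The deposited values are raw counts, used as they stand. The deposited DESeq2 tables (normalized counts and the authors' own comparisons) were not used.

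Spike-in rows (92) were left out of library sizes. Genes were kept by edgeR's filter (minimum count 10, minimum total 15), scaled by TMM and tested with edgeR 4.0.16 (quasi-likelihood test, 1 mean per group, all 24 libraries, Benjamini-Hochberg over 14741 genes, threshold 0.05) in R 4.3.3. Normalized counts are counts scaled to a common library size by TMM, fold changes are log2, errors are SE unless SD is named. On data simulated for MB468 at 12 h (14464 genes, 200 changed), 97% of 2-fold and 86% of 1.5-fold changes were recovered and 6.15% of calls were false. Changes under 1.5-fold were not simulated, and far more genes were called in the real comparison (36.1% higher and 34.7% lower). These rates therefore do not describe the small changes of most members. Alternatives were DESeq2 1.42.0 (size factors and its own test), library sizes from spike-in totals, a covariate from the spike-ins, other filters, fits of the groups compared, a replicate block, a threshold of 0.01 and leaving out each library. The study's methods name RUVSeq for unwanted sample variation; its settings are not given in the sources used here.

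Members, lists and named genes were chosen with earlier results of these data known. The text names the called members with the largest and smallest log2 values (4 each way at 0 and 12 h, and 2 each way by smallest p at 0.5 and 2 h), the 3 highest and 3 lowest per kilobase, members and partners chosen for their roles, and the members that fell in MB468 and rose in R8 at 12 h; RPS18 and URGCP-MRPS24 were named after their values were seen. All 77 members matched GENCODE v44 (GRCh38), the source of gene coordinates, lengths and exon overlap. Nothing in the labels says that the 3 libraries of a group came from separate cultures, so p-values measure the spread between these libraries, which may be technical. No 2 libraries agreed within sampling noise. Depth sets the precision of low genes, and the members with the fewest counts carry the widest errors.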

Additional observations from a re-analysis of the deposited data

Results flagged for a closer look

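The quasi-likelihood test of edgeR for the 12 h difference (R8 response minus MB468 response) called 29 members higher and 16 lower. These were 38.16% and 21.05% of the tested members, against 26.2% and 30.3% of all tested genes. Calls in the 2 directions together were thus about as common as among all tested genes. Among the named members with a higher response in R8, the log2 difference was 0.92 for MRPL30, 0.85 for MRPS9, 0.79 for MRPL13 and 0.74 for MRPS25. Among those with a lower response in R8 it was -0.58 for MRPL55, -0.56 for MRPL34, -0.56 for MRPS12 and -0.51 for MRPS17. With spike-in totals as library sizes the median of all genes in this comparison was 0.20, 30 members were called higher and 0 lower, and the 4 lower values were -0.33, -0.30, -0.30 and -0.25 and no longer called.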

How the results depend on the processing

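The counts of members called (20 results) stayed within 1.5 times their values in 158 of 186 fits with another setting and in 463 of 480 that left out 1 library. Values of named genes kept their direction and call in 537 of 567 and 1488 of 1512. Spike-in totals as library sizes moved most. They gave 3 higher and 37 lower at 0 h, 0 higher in MB468 at 0.5 h, 0 and 68 in MB468 at 2 h, 14 higher in MB468 at 12 h, 0 and 0 in R8 at 0.5 h, 0 lower in R8 at 12 h, and for the difference of responses 3 higher at 2 h and 0 lower at 12 h. They turned GADD45GIP1 in MB468 at 12 h (-0.0126) and MRPL1 (-0.1116) and MRPS10 (-0.24) in MB468 at 2 h. The cause was not tested.

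At an adjusted p under 0.01, 1 higher and 6 lower remained in MB468 at 0.5 h, 1 and 1 in MB468 at 2 h, and 1 and 7 in R8 at 0.5 h. With the spike-in factor 1 was lower in MB468 at 2 h. Without a low-count filter 1 was lower in R8 at 2 h, 1 higher and 3 lower in the 0.5 h difference and 1 lower in the 2 h difference. Restriction to members with under 10% of exon bases shared, chosen after seeing the data, gave 24 and 7 in MB468, 31 and 2 in R8 and 18 and 8 in the difference at 12 h, from fewer members.

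Leaving out 1 library gave 2 to 6 higher and 8 to 17 lower in MB468 at 0.5 h, 0 to 4 and 0 to 2 in MB468 at 2 h, 2 to 3 and 9 to 15 in R8 at 0.5 h, 0 to 1 and 0 to 1 in the 0.5 h difference and 0 to 1 lower in the 2 h difference. At 12 h it gave 37 to 41 and 15 to 19 in MB468, 50 to 55 and 3 to 4 in R8 and 27 to 32 and 12 to 17 in the difference. Replicate numbers did not pair the libraries in most comparisons (mean correlation of same-numbered deviations from -0.145 to 0.277). The highest value was that of R8 at 2 h against 0 h. There libraries with different numbers had a mean of -0.138, which adds little, since deviations from a group's mean cancel out. The replicate block gave 40 higher and 17 lower in MB468 and 52 and 4 in R8 at 12 h and moved no count of members by over 1.5 times.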
